A study of Mus musculus with 16 samples.

Results

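The interleukin-1 family and inflammasome genes Il1a, Il1b, Il18, Il1rn, Il1r2, Nlrp3, Pycard, Casp1, Casp4 and Gsdmd were followed in engrafted brain macrophages and in host microglia. They were chosen by symbol, with earlier results of these data known, and each of the 10 was found once among the 24411 genes counted. The samples came from 8 bone marrow chimeras of strain C57BL/6J, with the genotype given as WT. All were irradiated with 950 cGy before they received donor marrow. Host microglia were thus irradiated and the transferred marrow cells were not. Irradiation therefore cannot be told apart from population wherever engrafted cells are compared with host microglia. The study names this limit and reports that engrafted cells also differed from age-matched microglia without irradiation. The study's text describes recipients irradiated at 6 weeks of age, congenic WT donor marrow with CD45.1 alleles and 9 months between transfer and sampling, whereas the labels allow 3.5 or 9 months for every library. In 4 mice (mice 1 to 4) lipopolysaccharide (LPS, a bacterial endotoxin) had been injected at 2.5 mg/kg 12 h before sampling. The other 4 mice (mice 5 to 8) received no LPS and are called controls, and whether they received a vehicle injection is not stated. From the brains, cells negative for Ly6C/G, positive for CD11b and low for CD45.1 (the progeny of the graft) or for CD45.2 (the radioresistant microglia left in the host) were sorted, which made 16 libraries in 4 groups of 4. Libraries of both populations with the same number in their titles were taken to come from 1 mouse, which the labels do not state outright.

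Interleukin-1 alpha and interleukin-1 beta are ligands of the same receptor, whose signal passes through the adaptor MyD88. Il1rn encodes a receptor antagonist and Il1r2 a decoy receptor, and both blunt that signal. Interleukin-1 beta and interleukin-18 are made as precursors that caspase-1 cuts within inflammasomes, complexes of a sensor such as NLRP3 with the adaptor ASC (Pycard), whereas caspase-4 (caspase-11 in the mouse) senses cytosolic LPS, and both caspases can open the pore protein gasdermin D.

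Between 395283 and 1203597 reads per library fell on genes (median 820587.5), so where a gene has 0 reads its true level may still reach that of 3 reads, 2.39 to 8.41 CPM (counts per 1e6 reads), a limit for counting error only. Microglial markers summed to 9059 to 11288 CPM in host controls, 3254 to 3878 in host LPS libraries, 4408 to 5394 in engrafted controls and 1969 to 2610 in engrafted LPS libraries, and Ms4a7, a marker of engrafted cells in the study, averaged 539 CPM in engrafted controls against 8.41 in host controls. A list of 7 monocyte markers summed to 108 to 157 CPM in engrafted controls, 1110 to 2276 in engrafted LPS libraries, 4.79 to 21.4 in host controls and 19.9 to 51.5 in host LPS libraries, and all 7 had a read in both engrafted groups. Among them Ly6c2, which encodes a Ly6C protein that the gate selects against, averaged 30.1 CPM in engrafted controls and 716 CPM in engrafted LPS libraries. A list of 12 neutrophil markers summed to 293 to 1366 CPM in engrafted controls, 2787 to 4888 in engrafted LPS libraries, 0 to 23.5 in host controls and 87.6 to 269 in host LPS libraries. Lcn2, which is not particular to neutrophils, made up most of the LPS sums (2377 to 4375 CPM in engrafted cells). Without Lcn2, S100a8 and S100a9 the engrafted sums were 113 to 478 CPM in controls and 26.8 to 224 CPM after LPS. In engrafted cells S100a8 averaged 132 CPM in controls and 85.6 after LPS, and S100a9 237 and 116 CPM. Ly6g had 3 reads in total over the engrafted LPS libraries and none in host libraries. The part of monocytes and neutrophils in the results below was not tested. RNA was measured in bulk, so fewer cells of a type and less RNA per cell cannot be told apart.

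LPS raised most of the members in both populations. Calls required a change of more than 2-fold together with an adjusted p under 0.05, from edgeR's quasi-likelihood test adjusted by Benjamini-Hochberg across all genes tested. In engrafted cells 7 of 10 members rose and 0 fell, where 10.2% of all tested genes rose and 11.3% fell. In host microglia 6 of 10 rose and 0 fell, where 7.66% of all tested genes rose and 10.4% fell. The median log2 fold change of the members was 1.39 in engrafted cells and 1.15 in host microglia, beside -0.01 and 0.01 over all genes tested. Because the members were chosen with earlier results known, these values describe them and were not tested against all genes. Il1a, Il1b, Il1rn, Il1r2, Nlrp3 and Casp4 rose in both populations, Pycard was called in engrafted cells, and Il18, Casp1 and Gsdmd were called in neither.

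**Figure D1:**
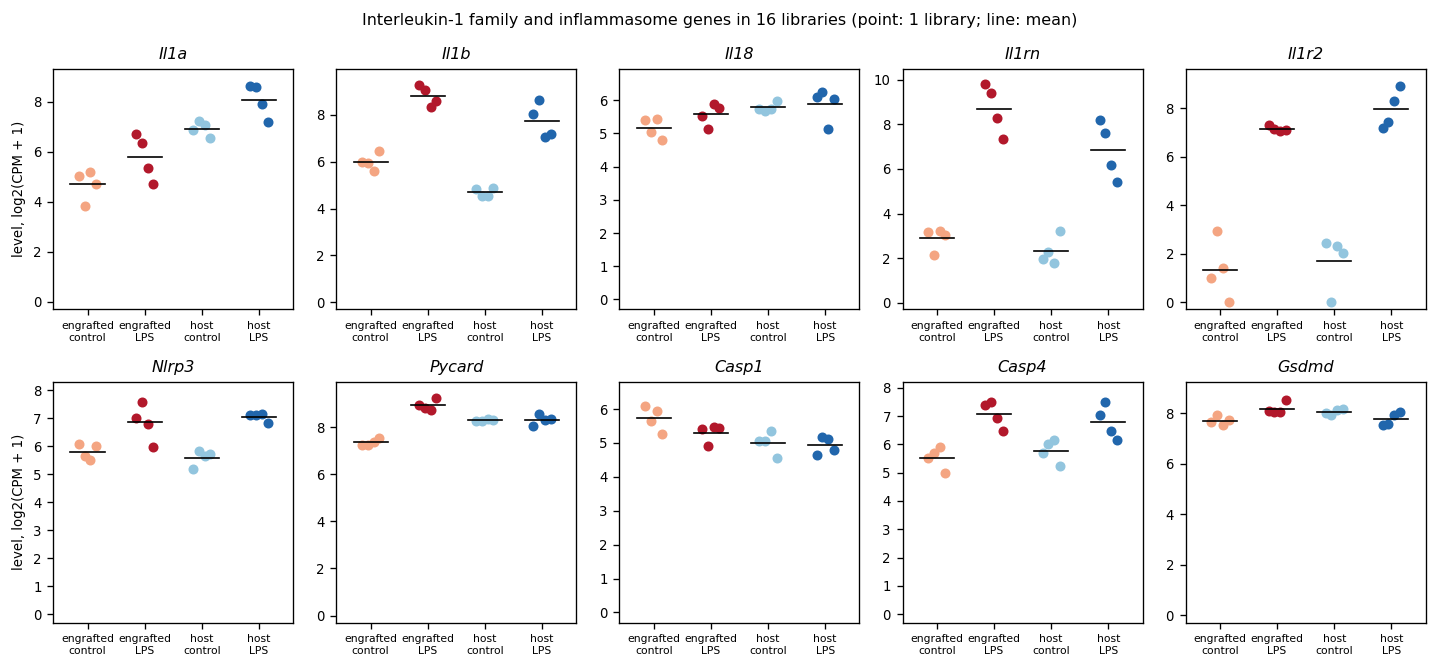
Level of each member as log2(CPM + 1) on the vertical axis in the 4 groups on the horizontal axis; each point is 1 library and each line the mean of 4. Il1b, Il1rn and Il1r2 after LPS lie above all controls of the same population, and Pycard lies higher after LPS in engrafted cells while the host groups overlap.

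**Figure D2:**
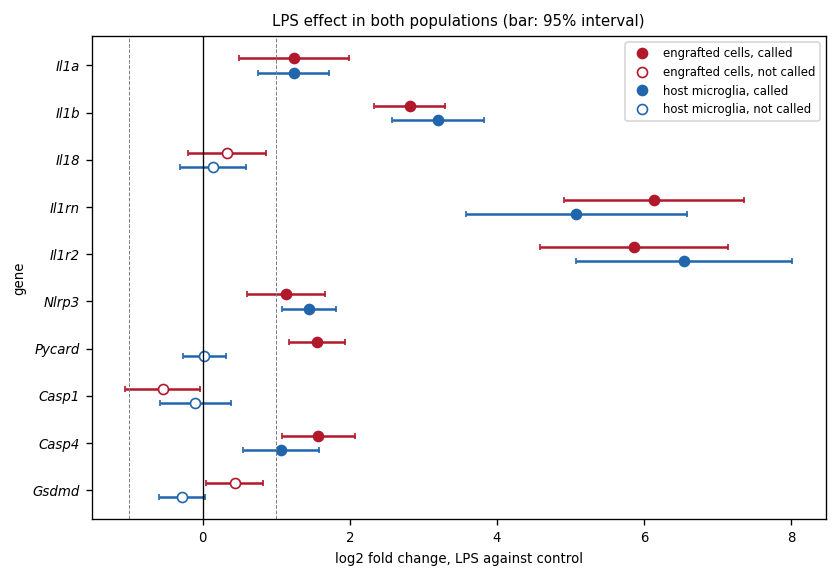
Log2 fold change of LPS against control (horizontal axis) for each member (vertical axis) in engrafted cells and host microglia, with 95% intervals; filled points were called and dashed lines mark a log2 fold change of 1 in either direction. Il1rn and Il1r2 have the largest fold changes and Pycard separates the populations, at 1.55 in engrafted cells and 0.02 in host microglia.

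The 250 bases upstream of the annotated start of 5 members, read from the mm9 genome on the gene's strand from 5′ to 3′, are shown. Of these members, 4 were called with LPS in both populations and Pycard in engrafted cells. Il1r2 and Nlrp3, also called in both populations, are not shown. Capitals mark matches, on either strand, to the NF-kappaB consensus (by name), the AP-1 motif TGANTCA, the interferon response core GAAANNGAA or the PU.1 motif GAGGAA.
Il1a, chr2:129135709-129135958, minus strand: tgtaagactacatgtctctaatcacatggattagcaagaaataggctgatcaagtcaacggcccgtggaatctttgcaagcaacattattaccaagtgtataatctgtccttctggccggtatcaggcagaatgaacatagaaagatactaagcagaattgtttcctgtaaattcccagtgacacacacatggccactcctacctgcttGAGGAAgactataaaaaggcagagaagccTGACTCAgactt
Il1b, chr2:129196876-129197125, minus strand: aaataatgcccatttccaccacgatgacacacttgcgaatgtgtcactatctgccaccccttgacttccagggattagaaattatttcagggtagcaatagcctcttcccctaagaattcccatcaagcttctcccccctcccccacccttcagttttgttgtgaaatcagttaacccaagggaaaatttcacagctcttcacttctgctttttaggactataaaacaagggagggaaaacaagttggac
Il1rn, chr2:24192130-24192379, plus strand: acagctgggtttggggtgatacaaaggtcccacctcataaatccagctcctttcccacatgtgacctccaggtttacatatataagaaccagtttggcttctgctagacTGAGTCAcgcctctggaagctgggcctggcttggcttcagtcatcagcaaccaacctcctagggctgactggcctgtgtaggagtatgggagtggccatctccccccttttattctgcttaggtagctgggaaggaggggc
Casp4, chr9:5308599-5308848, plus strand: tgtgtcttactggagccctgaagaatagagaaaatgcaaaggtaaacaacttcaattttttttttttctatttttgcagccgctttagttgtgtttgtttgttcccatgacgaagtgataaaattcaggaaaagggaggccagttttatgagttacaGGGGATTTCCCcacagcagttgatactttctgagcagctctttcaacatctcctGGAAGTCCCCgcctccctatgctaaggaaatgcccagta
Pycard, chr7:135137382-135137631, minus strand: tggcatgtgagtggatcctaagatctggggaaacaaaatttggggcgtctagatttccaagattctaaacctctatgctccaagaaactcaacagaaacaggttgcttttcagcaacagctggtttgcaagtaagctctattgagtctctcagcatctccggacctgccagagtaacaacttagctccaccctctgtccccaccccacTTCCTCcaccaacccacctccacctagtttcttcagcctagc

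An NF-kappaB match was found in 2 members, Casp4 and Gsdmd, and in 7.75% of the 24341 windows of all genes. An AP-1 match was found in Il1a and Il1rn, and in 6.16% of all windows. The interferon core was found in Gsdmd and in 7.16% of all windows, and the PU.1 motif in 6 members (Il1a, Il18, Nlrp3, Pycard, Casp1 and Gsdmd) and in 22.9% of all windows. The Il18 window rests on the start in the deposited table, 9905 bases from the nearest GENCODE start, while the other members' starts lie within 4 bases of one. The Il1b window and the Il1r2 window, which is not shown, held none of these motifs. In the Casp4 window both capital stretches are NF-kappaB matches, in the Il1a window the first is the PU.1 motif and the second AP-1, in the Il1rn window the stretch is AP-1, and in the Pycard window it is the PU.1 motif on the opposite strand. These are matches of letters and not measured binding.

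Among the ligands, Il1b (NM_008361, chr2:129190314-129196875) was low in controls and rose several-fold with LPS. In engrafted controls its level was 61.4, 60.7, 47.5 and 86.4 CPM in mice 5 to 8, and in engrafted LPS libraries 610, 533, 320 and 381 CPM in mice 1 to 4. In host controls it was 27.8, 22.3, 22.3 and 28.6 CPM, and in host LPS libraries 259, 390, 130 and 145 CPM. All LPS libraries lay above all controls of either population. The log2 fold change was 2.82 (SE 0.23, edgeR's adjusted p = 1.56e-08) in engrafted cells and 3.20 (SE 0.30, edgeR's adjusted p = 1.79e-08) in host microglia, and the 2 effects differed by -0.38 (95% interval -1.22 to 0.46, edgeR's adjusted p = 0.665). The 3 genes whose log2(CPM + 1) followed Il1b most closely over the 16 libraries, among 3784 genes averaging 50 CPM or more, were Clec4a1 (Pearson's r = 0.991), Sdc4 (0.972) and Serp1 (0.968), a description over libraries that share 4 groups.

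Il1a (NM_010554, chr2:129125346-129135708) lies 54605 bases from Il1b and was distributed between the populations the other way. Its level was 32.2, 13.5, 36.0 and 25.2 CPM in engrafted controls and 104, 81.7, 40.3 and 25.2 CPM in engrafted LPS libraries. In host microglia it was 117, 150, 134 and 92.9 CPM in controls and 395, 392, 238 and 146 CPM after LPS. Mice 1 and 2 were the highest in both populations, and the LPS and control ranges overlapped in each. The log2 fold change of LPS was 1.24 in both, with SE 0.36 (edgeR's adjusted p = 0.00832) in engrafted cells and SE 0.23 (edgeR's adjusted p = 0.000207) in host microglia, and the difference of these effects was 0.00 (95% interval -0.95 to 0.95). Without the engrafted LPS library of mouse 1 the engrafted effect was 0.91 and no longer called (edgeR's adjusted p = 0.0674). A long noncoding gene on the opposite strand, Gm14023, shares 222 exon bases with Il1a, and the authors counted by strand.

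Il18 (NM_008360) did not pass the test in any comparison. It was at 41.3, 32.0, 42.6 and 27.0 CPM in engrafted controls, 44.7, 34.2, 58.5 and 53.3 after LPS, 52.7, 49.5, 52.6 and 62.3 in host controls and 67.7, 74.8, 33.8 and 64.0 after LPS. The engrafted controls all lay below the host controls, with a log2 difference of -0.52 (SE 0.20, edgeR's adjusted p = 0.0549), while the other neighbouring groups overlapped. The LPS effect was 0.33 (95% interval -0.20 to 0.87) in engrafted cells and 0.14 (95% interval -0.31 to 0.59) in host microglia. The genes most like it were Cdipt (r = 0.752), Ociad1 (0.748) and Commd3 (0.728).

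The receptor antagonist and the decoy receptor showed the largest fold changes among the members. Il1rn (NM_031167, chr2:24192380-24207011) was at 8.06, 3.37, 8.19 and 7.20 CPM in engrafted controls and at 2.93, 3.88, 2.39 and 8.17 CPM in host controls, 2 to 8 reads in each library. After LPS it reached 883, 670, 306 and 163 CPM in engrafted cells and 290, 195, 71.2 and 41.7 CPM in host microglia. The order of the mice was the same in both populations, with mouse 1 the highest and mouse 4 the lowest. The log2 fold change was 6.13 (SE 0.58, edgeR's adjusted p = 6.35e-09) in engrafted cells and 5.08 (SE 0.73, edgeR's adjusted p = 2.02e-07) in host microglia. Summed over the libraries this was 1631 against 19 reads, a ratio of 83.2 (95% counting interval 53.1 to 139), and 538 against 17 reads, a ratio of 36.5 (22.6 to 63.1). Counting intervals, here and below, cover counting error only and leave out the spread between mice. The difference of the 2 effects was 1.07 with a 95% interval of -1.11 to 3.25 (edgeR's adjusted p = 0.654). With the mouse added to the fit as a replicate block it was 1.14 (edgeR's adjusted p = 0.216).

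Il1r2 (NM_010555, chr1:40141613-40182070) had 1, 4, 1 and 0 reads in the engrafted controls and 11 reads in all 4 host controls. After LPS its level was 158, 138, 133 and 137 CPM in engrafted cells and 146, 171, 308 and 483 CPM in host microglia. The engrafted libraries were close to each other, whereas the host libraries of mice 3 and 4 were the highest, in contrast to Il1rn, for which these mice were the lowest. The ratio of summed reads was 65.4 (95% counting interval 29.8 to 179) in engrafted cells and 94.4 (52.5 to 190) in host microglia, with log2 fold changes of 5.87 (SE 0.61, edgeR's adjusted p = 4.01e-10) and 6.55 (SE 0.71, edgeR's adjusted p = 3.49e-10). The engrafted effect was 6.98 without the control of mouse 6, which held 4 of the 6 control reads, and the effects of the 2 populations differed by -0.67 (95% interval -2.95 to 1.61, edgeR's adjusted p = 0.813). Of the 12 neutrophil markers, 8 had a read in host LPS libraries. Lcn2 had 587 reads there and 42 in host controls, S100a8 29 and 2, and Cxcr2 6 and 1. S100a9 had 2 and 2 reads, Ltf 1 and 1, Ngp 2 and 0, Mpo 1 and 0, and Elane 1 and 0. Ly6g, Camp, Retnlg and Mmp8 had none after LPS. In engrafted cells Mmp8 averaged 0.252 CPM in controls and 26.8 CPM after LPS, and Camp 59.4 and 18.7 CPM.

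Of the inflammasome sensor and adaptor, Nlrp3 rose in both populations and Pycard in engrafted cells. Nlrp3 (NM_145827) was at 66.5, 48.9, 44.2 and 63.0 CPM in engrafted controls and 129, 192, 111 and 61.7 CPM after LPS, where mouse 4 lay within the control range. In host microglia it was at 35.1, 55.4, 48.7 and 51.1 CPM in controls and 138, 136, 141 and 111 CPM after LPS, without overlap. The log2 fold change was 1.13 (SE 0.25, edgeR's adjusted p = 0.00138) in engrafted cells and 1.44 (SE 0.18, edgeR's adjusted p = 9.93e-07) in host microglia, and the former was 0.87, under the threshold, without the engrafted LPS library of mouse 2. The effects differed by -0.32 (95% interval -0.96 to 0.33).

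Pycard (NM_023258, chr7:135134887-135137381) was the member whose LPS effect differed between the populations. In engrafted controls it was at 151, 152, 164 and 185 CPM, and after LPS at 493, 455, 420 and 594 CPM, all above all controls. In host controls it was at 309, 306, 323 and 312 CPM, a narrow range, and after LPS at 264, 377, 318 and 320 CPM on both sides of that range. The log2 fold change was 1.55 (SE 0.18, edgeR's adjusted p = 1.95e-06) in engrafted cells and 0.02 (95% interval -0.27 to 0.31, edgeR's adjusted p = 0.926) in host microglia. The difference of the effects was 1.52 (SE 0.23, 95% interval 1.05 to 1.99, edgeR's adjusted p = 0.000113). It was the 1 member called in this test, higher in engrafted cells, where 2.45% of all tested genes were called in that direction and 2.5% in the other, in which 0 members were called. The median difference of the 10 members was 0.09, beside -0.04 over all genes tested.

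Among the effectors, Casp4 rose in both populations, and Casp1 and Gsdmd passed in neither. Casp4 (NM_007609, chr9:5308849-5336791) was at 44.3, 50.6, 59.0 and 30.6 CPM in engrafted controls and 167, 181, 121 and 86.9 CPM after LPS. In host microglia it was at 51.2, 63.1, 70.2 and 36.8 CPM in controls and 131, 179, 86.9 and 70.9 CPM after LPS, where mouse 4 was just above the highest control. The log2 fold change was 1.57 (SE 0.24, edgeR's adjusted p = 2.41e-05) in engrafted cells and 1.07 (SE 0.25, edgeR's adjusted p = 0.00142) in host microglia. The host effect went under the threshold without the host LPS library of mouse 2 (0.80) or the host control of mouse 8 (0.90).

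Casp1 (NM_009807), a neighbour that ends 1567 bases before Casp4 begins, was at 67.5, 48.9, 60.6 and 37.8 CPM in engrafted controls and 41.4, 29.3, 42.9 and 42.1 CPM after LPS. Host microglia had 32.2, 32.1, 39.9 and 22.5 CPM in controls and 24.1, 34.9, 33.8 and 26.4 CPM after LPS, and all neighbouring groups overlapped. The LPS effect was -0.54 (SE 0.24, edgeR's adjusted p = 0.0838) in engrafted cells and -0.10 (SE 0.23) in host microglia.

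Gsdmd (NM_026960) was at 198, 244, 182 and 211 CPM in engrafted controls and 274, 260, 262 and 370 CPM after LPS, which did not overlap. In host microglia it was at 259, 240, 278 and 284 CPM in controls and 183, 190, 243 and 267 CPM after LPS. The LPS effect was 0.44 (SE 0.19, edgeR's adjusted p = 0.0708) in engrafted cells and -0.28 (SE 0.15, edgeR's adjusted p = 0.152) in host microglia. The effects differed by 0.70 (95% interval 0.19 to 1.21, edgeR's adjusted p = 0.0974). With the mouse as a replicate block they differed by 0.71 (edgeR's adjusted p = 0.0463), less than 2-fold and not called.

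The populations were then compared with each other, first in controls, whose libraries also entered the LPS tests above. Il1b was called higher and Il1a lower in engrafted cells. Of 8 members tested (Il1rn and Il1r2 had too few reads), 1 was higher, where 6.25% of all tested genes were, and 1 was lower, where 4.73% were. Il1b was higher in engrafted cells by 1.40 on the log2 scale (SE 0.22, edgeR's adjusted p = 1.55e-05), and Il1a lower, at -2.12 (SE 0.23, edgeR's adjusted p = 1.70e-08), and for neither did the populations overlap. Pycard, at -0.89 (SE 0.13, edgeR's adjusted p = 8.63e-06), and Casp1, at 0.84 (SE 0.22, edgeR's adjusted p = 0.00548), differed by less than 2-fold and were not called. The control groups of Il1rn and Il1r2 overlapped (two-sided exact permutation p = 0.257 and 0.857, 4 against 4 libraries, smallest possible p 0.0286).

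After LPS, Il1b and Il1rn were higher and Il1a lower in engrafted cells. These were 2 and 1 of 10 members, where 6.73% of all tested genes were higher and 4.34% lower. Il1a differed by -2.14 (SE 0.35, edgeR's adjusted p = 0.000223), and the engrafted level was 0.264, 0.209, 0.170 and 0.173 times the host level of mice 1 to 4. Il1b differed by 1.02 (SE 0.30, edgeR's adjusted p = 0.0255), and its engrafted level was 2.35, 1.37, 2.45 and 2.64 times the host level. Il1rn differed by 1.78 (SE 0.49, edgeR's adjusted p = 0.0189), and its engrafted level was 3.04, 3.43, 4.29 and 3.90 times the host level. All 4 mice thus showed the same direction for each of these genes, although the groups overlapped for Il1b and Il1rn. With the mouse as a replicate block the difference of Il1rn was 1.86 (edgeR's adjusted p = 2.86e-07), and 1.80 to 1.96 with both libraries of any 1 mouse left out. With the same block the difference of Il1b was 1.10 (edgeR's adjusted p = 0.000291), and 0.99 to 1.33 with any 1 mouse left out, under the threshold without mouse 4.

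**Figure D3:**
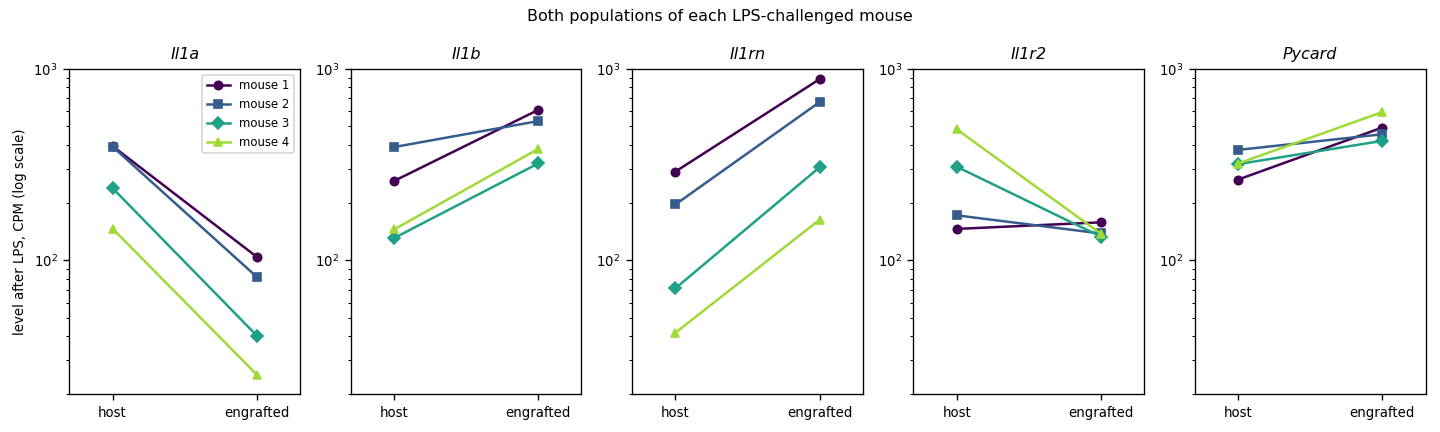
Level in CPM (vertical axis, log scale) of 5 members in host microglia and engrafted cells of the 4 LPS mice, with 1 line per mouse. The lines of Il1a fall and those of Il1b, Il1rn and Pycard rise from host to engrafted cells in every mouse, whereas those of Il1r2 converge on 133 to 158 CPM in engrafted cells.

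The Il1b call after LPS was close to the threshold. Scaling by library totals, which shifts the median gene by -0.15 in this comparison, gave 0.87, and leaving out mouse 1, 3 or 4 of the host or mouse 1 or 2 of the engrafted libraries also ended the call (0.82 to 1.07, edgeR's adjusted p 0.0509 to 0.0962). The Il1rn call was lost with DESeq2 (adjusted p = 0.0884) and without the engrafted LPS libraries of mouse 1 or 2 or the host LPS library of mouse 3 (1.38 to 1.63, edgeR's adjusted p 0.0524 to 0.0863). Of all genes called after LPS, 60.8% were higher in engrafted cells, and 48.7% under library totals. Il1r2 differed by -0.95 (SE 0.31, edgeR's adjusted p = 0.0407), just under the threshold, and was 1.08, 0.804, 0.431 and 0.285 times the host level in mice 1 to 4. It was called lower under library totals (-1.11) and without the host LPS library of mouse 1 (-1.17) or mouse 2 (-1.13). With other single libraries left out it came down to -0.53, with the mouse as a replicate block it was -0.76, and with the block and without mouse 3 or 4 it was -0.60 (edgeR's adjusted p = 0.255) or -0.46 (edgeR's adjusted p = 0.0937). Pycard, lower in engrafted controls, was higher after LPS in each of the 4 mice, by 0.64 (SE 0.20, edgeR's adjusted p = 0.0317), under 2-fold.

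**Figure D4:**
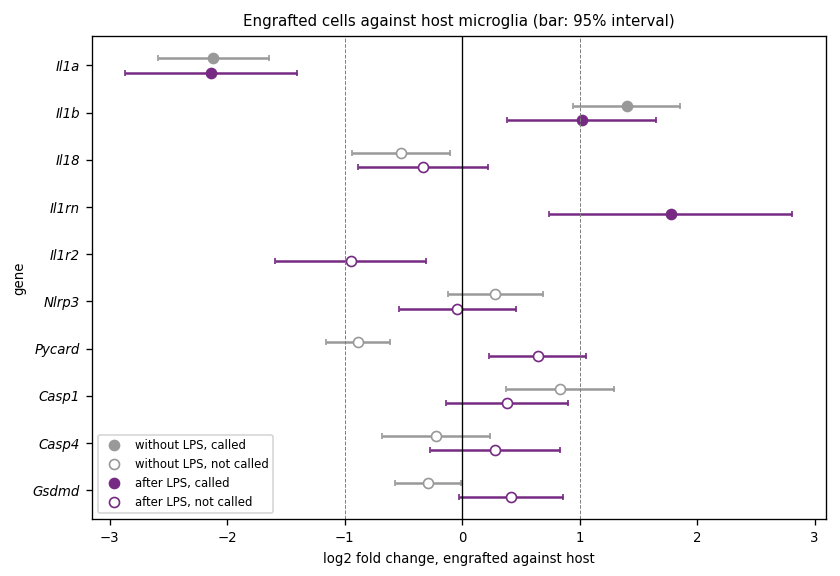
Log2 fold change of engrafted against host cells (horizontal axis) for each member (vertical axis), without and after LPS, with 95% intervals; filled points were called, and Il1rn and Il1r2 were not tested without LPS. Il1a lies at -2.12 and -2.14, Il1b above 1 in both, and Pycard changes side, from -0.89 to 0.64.

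Other genes of the pathway were taken from 3 lists. Of 14 further ligands, receptors and binding proteins of the family, 5 had no read in any library and 2 were tested with LPS. Among the receptor genes not tested, Il18r1 had 1 read over all libraries, Il1rap 58 and Il1r1 83. Il18rap, an accessory chain of the interleukin-18 receptor, rose in both populations, from 0 to 2.01 CPM to 24.4 to 41.4 CPM in engrafted cells and from 1.46 to 4.08 CPM to 87.7 to 127 CPM in host microglia. The ratio of summed reads was 44.6 (95% counting interval 12.0 to 374, on 2 control reads) in engrafted cells and 34.5 (19.5 to 67.4) in host microglia. After LPS it was lower in engrafted cells, with a log2 difference of -1.67 (SE 0.23, edgeR's adjusted p = 2.69e-05). Without LPS 0 of 1 tested genes of this list was called, where 6.25% of all genes tested were higher and 4.73% lower. The test of the difference between LPS effects called 0 of 2, beside 2.45% of all genes tested higher and 2.5% lower. With so few genes tested, these counts do not describe the list.

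Of 22 further sensors, caspases, pore proteins and channels, 13 were tested with LPS in engrafted cells, where 1 rose and 2 fell, beside 10.2% and 11.3% of all genes tested. Ninj1, which mediates membrane rupture at the end of lytic cell death, rose by 1.08 on the log2 scale (SE 0.22, edgeR's adjusted p = 0.000692), from 350 to 419 CPM to 479 to 1193 CPM. P2rx7, an ATP-gated channel upstream of NLRP3, fell by 1.18 on the log2 scale (SE 0.18, edgeR's adjusted p = 3.18e-05), and Nek7, a kinase that binds NLRP3, fell by 1.12 on the log2 scale (SE 0.22, edgeR's adjusted p = 0.000443). In host microglia P2rx7 was at -0.84 (SE 0.16, edgeR's adjusted p = 0.000249), less than 2-fold, and Nek7 at -0.34 (SE 0.19, edgeR's adjusted p = 0.162). The LPS effects on P2rx7 and Nek7 differed between the populations by -0.35 and -0.79 (edgeR's adjusted p = 0.454 and 0.113), neither of which was called. In host microglia 1 of 14 was called higher and 0 lower, beside 7.66% and 10.4% of all genes tested, the channel gene Panx1 at 1.04 (SE 0.34, edgeR's adjusted p = 0.0171).

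Between the populations, Nlrc4, whose protein pairs with NAIP proteins, had 111 reads in engrafted and 1 read in host controls, a ratio of 159 (95% counting interval 28.0 to 6342). After LPS it had 84 reads against 1 read, a ratio of 101 (17.7 to 4046), and it was called higher in engrafted cells in both comparisons. It was the 1 called gene of 14 tested without LPS, where 6.25% of all genes tested were higher and 4.73% lower. After LPS 3 of 15 were higher and 0 lower, where 6.73% and 4.34% of all genes tested were. These included Ninj1, higher by 1.94 on the log2 scale (SE 0.24, edgeR's adjusted p = 1.41e-05), and Mefv, at 17.5 ± 4.91 CPM (SD, n = 4) in engrafted LPS libraries and with 3 reads in all over the host LPS libraries. Ninj1 was also higher in engrafted than in host controls, by 0.75 (SE 0.13, edgeR's adjusted p = 0.000105), less than 2-fold and not called. The LPS effect on Ninj1 was larger in engrafted cells, by 1.20 (SE 0.28, edgeR's adjusted p = 0.00957), 1 of 16 genes tested for such a difference, beside 2.45% of all genes tested.

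Of 14 genes of signal transduction below the interleukin-1 receptor, 11 were tested with LPS in engrafted cells and 10 in host microglia. In engrafted cells 2 rose and 0 fell, where 10.2% of all genes tested rose and 11.3% fell. In host microglia 1 rose and 0 fell, where 7.66% of all genes tested rose and 10.4% fell. Irak3, an inhibitory kinase of the pathway, rose by 1.82 (SE 0.38, edgeR's adjusted p = 0.000557) in engrafted cells and 2.03 (SE 0.38, edgeR's adjusted p = 7.40e-05) in host microglia. It was the 1 gene of 10 called between the populations after LPS, higher in engrafted cells by 1.15 (SE 0.35, edgeR's adjusted p = 0.0282). Of all genes tested in that comparison, 6.73% were higher and 4.34% lower. Irak3 levels after LPS overlapped, at 14.0 to 74.4 CPM in engrafted cells and 15.7 to 35.6 CPM in host microglia. The lowest engrafted LPS library, with 5 reads, lay within the engrafted control range of 10.1 to 21.6 CPM. The adaptor Myd88 rose by 1.26 (SE 0.19, edgeR's adjusted p = 2.93e-05) in engrafted cells, from 48.6 to 77.0 CPM to 121 to 181 CPM, and stood at 61.5 to 91.7 CPM and 113 to 157 CPM in host microglia, where the effect was 0.76 (SE 0.17, edgeR's adjusted p = 0.000907), less than 2-fold. Without LPS 0 of 10 genes of this list were called between the populations, where 6.25% of all genes tested were higher and 4.73% lower. Irak3 was not among these 10, as it had too few reads. Its control levels did not overlap, at 10.1 to 21.6 CPM (9 to 12 reads) in engrafted cells and 4.39 to 7.15 CPM (3 to 7 reads) in host microglia. For the difference in LPS effect 0 of 11 genes of the list were called, where 2.45% of all genes tested were higher and 2.5% lower.

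**Figure D5:**
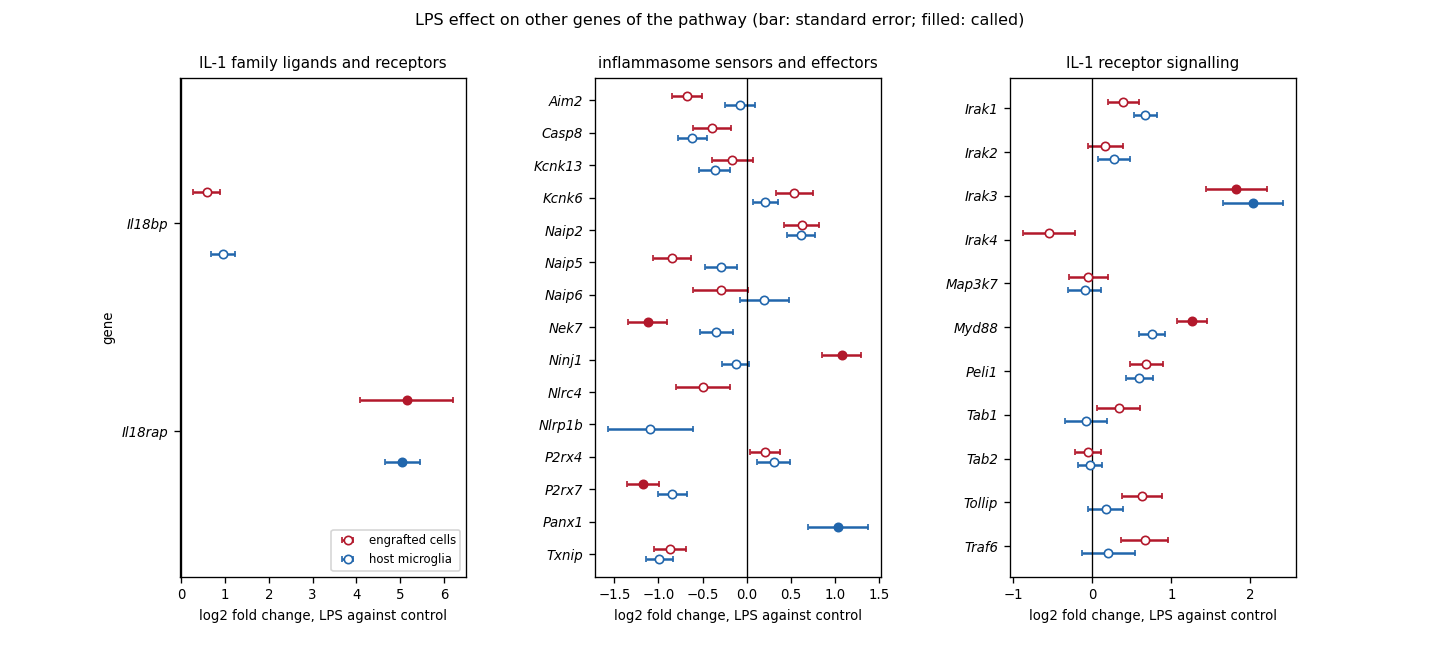
Log2 fold change of LPS against control (horizontal axis) with its standard error for the tested genes of the 3 lists (vertical axes), in engrafted cells and host microglia; filled points were called and genes tested in 1 population have 1 point. Il18rap and Irak3 rose in both populations, and Ninj1 lies at 1.08 in engrafted cells and near 0 in host microglia.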

How the data were processed

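Polyadenylated RNA of sorted cells was sequenced by a derivation of MARS-seq, a 3′ protocol. The authors mapped reads to mm9 with HISAT (version 0.1.5 in the submitters' processing notes), kept unique alignments and deposited raw read counts on exons per gene, counted on the sense strand with HOMER. Whether PCR duplicates were removed is not given in the sources used here.

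Counts were analysed in R 4.3.3 with edgeR 4.0.16: low-count filter (minimum count 10, total 15), TMM scaling, quasi-likelihood tests (prior count 0.125) and Benjamini-Hochberg adjustment, with calls beyond a log2 change of 1 in either direction and under an adjusted p of 0.05. Standard errors are Wald errors of the fit. CPM used TMM sizes over the 16 libraries, which were grouped by title. The 24 pairs of replicate libraries differed by 1.98 to 8.64 times counting noise, so none was a copy. Libraries sharing a number in their titles were taken as 1 mouse, which no label states outright, and their deviations from group means correlated at r = 0.123, 0.0152, 0.194, 0.116, 0.0184, -0.0335, 0.0521 and 0.0772 for mice 1 to 8. Against host libraries of the other mice with the same treatment, the mean r was -0.0357, -0.00109, -0.0591, -0.0475, -0.00173, 0.00844, -0.0165 and -0.0279. Alternatives were other scalings (RLE size factors, library totals), DESeq2 1.42.0, no filter, all libraries in one fit, the mouse as a replicate block and each library left out.

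The members and the gene lists were chosen with earlier results of these data known. All members are named, and of the lists up to 4 called genes per comparison by absolute fold change, with a mean of at least 10 CPM. Mefv (9.15 CPM over the libraries compared) is named outside that rule, after its values were seen.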

Additional observations from a re-analysis of the deposited data

Results flagged for a closer look

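Casp1 in the engrafted LPS library of mouse 2 was at 29.3 CPM, far from the 41.4 to 42.9 CPM of the other engrafted LPS libraries. Gsdmd in the engrafted LPS library of mouse 4, the library with the fewest reads, was at 370 CPM, far from the 260 to 274 CPM of the others. With 40 groups of 4 examined, 2 such libraries were found, and chance gives about 2. The effect of LPS on Pycard was larger in engrafted cells than in host microglia by 1.52 on the log2 scale, by the test of the difference itself.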

How the results depend on the processing

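With 1 library left out, the members called with LPS were 6 to 7 in engrafted cells and 5 to 6 in host microglia. The counts between engrafted cells and host microglia after LPS moved by over 1.5 times. The number higher, 2, was 1 with library totals, 1 with DESeq2 and 0 to 2 with 1 library left out. The number lower, 1, was 2 with library totals and 1 to 2 with 1 library left out. With the mouse as a replicate block no call of a member changed. When both libraries of 1 mouse were also left out, an alternative chosen after seeing the data, 1 was higher without mouse 4 (Il1b at 0.99) and 2 were lower without mouse 1 (Il1r2 at -1.07), and the difference of Nlrp3 changed sign without mouse 4 (0.048). Some fold changes that were not called changed sign. The difference in LPS effect on Il1a was -0.060 with library totals, -0.11 with the replicate block and -0.34 to 0.21 with 1 library left out. Leaving out 1 library also gave -1.02 to 0.46 for that of Il1r2 (-0.67 with all libraries, above 0 without the engrafted control of mouse 6), -0.048 to 0.11 for the LPS effect on Pycard and -0.24 to 0.038 for that on Casp1 in host microglia, and -0.32 to 0.15 for Nlrp3 between the populations after LPS. The mean level of Pycard in host controls was 322 CPM with library totals and 312 with TMM. Over all genes, no filter on low counts gave 1337 in place of 861 lower with LPS in engrafted cells, and 895 in place of 503 higher in engrafted controls and 857 in place of 528 after LPS against host. The number with a smaller LPS effect in engrafted cells, 221, was 135 to 245 with 1 library left out, with 135 without the host LPS library of mouse 3 and 143 without the host control of mouse 8. The causes were not tested. Low reads in controls limit the Il1rn and Il1r2 fold changes.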
